A study of Sus scrofa with 12 samples.

Results

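The EGF family genes of oxyntic mucosa, the part of the stomach that secretes acid, were examined in 6 CA piglets and 6 SA piglets at 2 weeks of age. The family was set by name as the ligands EGF, TGFA, AREG, EREG, BTC and HBEGF and the receptors EGFR, ERBB2 and ERBB3. A gene entered when the platform annotation gave an array feature that single symbol, and the brightest feature was kept where a gene had several. In this way 8 of the 9 genes were measured, each by 1 feature, out of 10910 genes in all, and EGFR was not analysed here.

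All piglets were of the (Great York x Pietrain) x 'Dalland' cross, were delivered by caesarean section and received orally the same starter microbiota of Lactobacillus amylovorus, Clostridium glycolicum and Parabacteroides spp. The CA piglets (complex association) were then inoculated with diluted feces of an adult sow, and the SA piglets (simple association) were given a placebo. The groups thus differ in how complex the microbiota given to them was. The sample labels name pasteurized sow colostrum as the first meal where the study's methods name sow serum for this trial. The labels also put each treatment in a room of its own, whereas the methods describe both treatments within a room, and the RNA extraction kit named by each differs. By the labels, room and treatment cannot be told apart. No source used here gives the litter or sex of a single piglet, and the part of these in any difference between the groups was not tested.

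Ligands of this family are made as membrane-anchored precursors, are released by proteases of the cell surface, and bind receptor tyrosine kinases that work in pairs. EGF, TGFA and AREG are known as ligands of EGFR, while EREG, BTC and HBEGF can also bind ERBB4. ERBB2 has no known ligand and serves as a partner of the other receptors, and ERBB3 has little kinase activity of its own and signals through its partner. In the stomach of mammals the family is known for restraint of acid secretion, for renewal of the glands and for repair of the surface epithelium.

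Each piglet had 1 Affymetrix array of porcine genes, and values are given as log2 intensity after the normalization by the authors. Median intensity was alike in the arrays, between 55.6 and 57.6. The array of CA piglet 4 stood apart on the first principal component of all features, which held 24.6% of the variance, and received the lowest array weight in limma (0.2665). The tissue carried the parietal cell markers of its label. The means of 6 measured markers of parietal cells (ATP4A, ATP4B, KCNE2, KCNJ15, AQP4 and SLC26A7) lay between 9.37 and 10.32 on the log2 scale in the CA piglets and between 9.27 and 10.34 in the SA piglets, and all 6 features were above the median feature of the arrays. Of 6 measured markers of antrum and intestine, 4 were below that median, as was KRT5, the 1 measured marker of squamous epithelium.

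None of the family genes passed the test of the CA against the SA piglets over all genes. From limma with Benjamini-Hochberg adjustment, 0 of the 8 genes passed an adjusted p of 0.05 (adjusted p = 0.999 for each), and 0 of 10910 genes passed (0%). At an unadjusted p under 0.05, 2 of the 8 genes, EGF and TGFA, were counted, both higher in the CA piglets. This stands beside 358 of 10910 genes (3.28%), of which 225 (2.06%) were higher in the CA piglets and 133 (1.22%) were lower. The mean was higher in the CA piglets for 6 of the 8 genes, as it was for 52.7% of all genes. The median log2 difference of the 8 genes was 0.15, against 0.01 over all genes. In none of the 8 genes were the groups free of overlap, which occurred in 0.128% of all genes. RNA of a whole mucosal sample was measured, in which fewer cells of a type and less RNA per cell cannot be told apart.

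**Figure D1:**
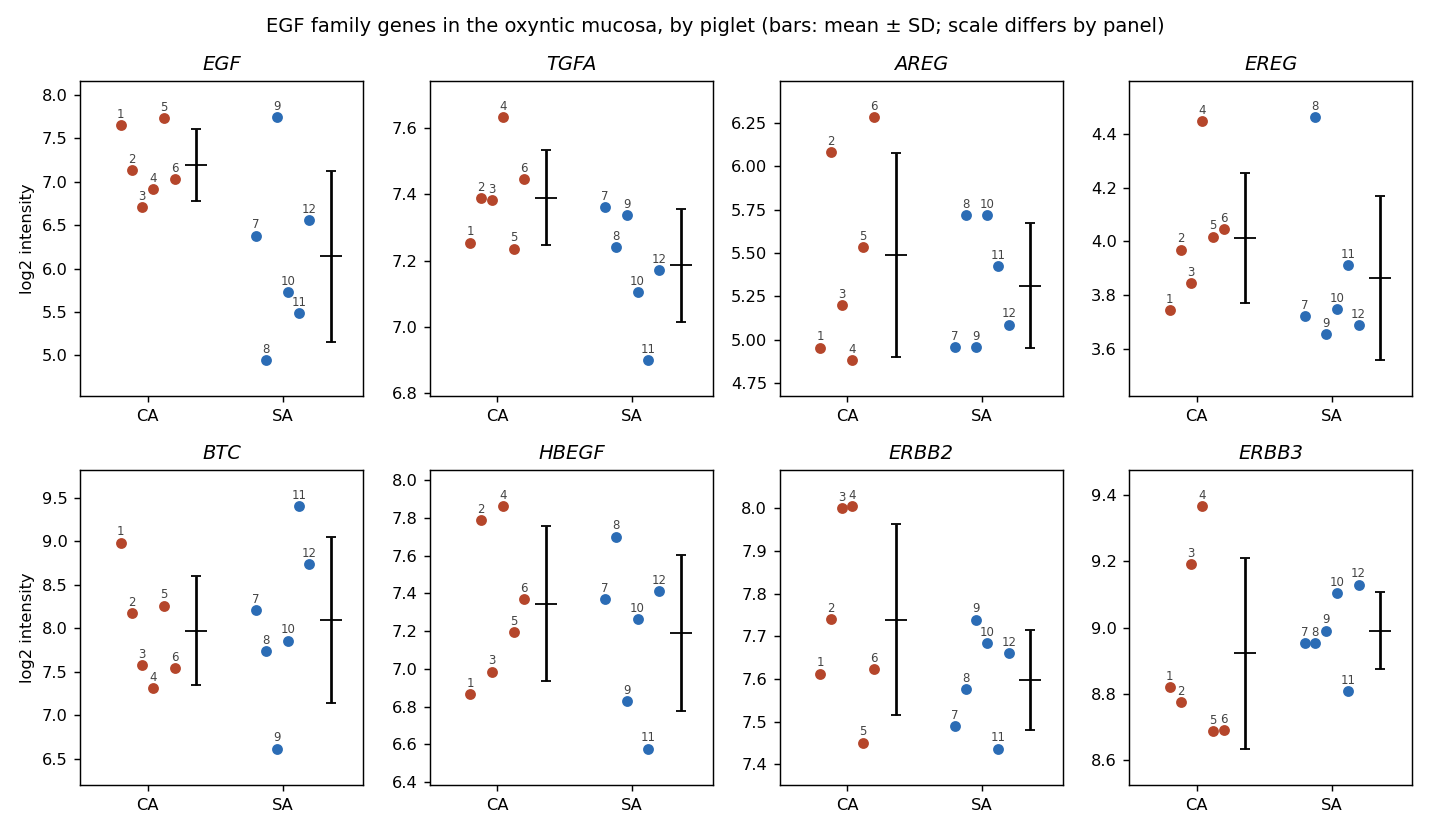
Log2 intensity (vertical axes, scaled per panel) of the 8 measured EGF family genes in 6 CA and 6 SA piglets. Points are piglets with their numbers, and bars give the mean ± SD. The 6 CA values of EGF, TGFA and EREG all lie above the median of the SA piglets, and in every panel the groups overlap.

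EGF, the founding ligand of the family, which saliva carries to the stomach, had log2 intensities of 7.65, 7.13, 6.71, 6.92, 7.74 and 7.03 in the CA piglets 1 to 6. In the SA piglets 7 to 12 it was at 6.38, 4.95, 7.74, 5.73, 5.49 and 6.56. All CA piglets lay above 5 of the SA piglets, and SA piglet 9 was level with the highest of the CA piglets. EGF averaged 7.20 ± 0.41 in the CA piglets and 6.14 ± 0.98 in the SA piglets (SD, n = 6 each), a log2 difference of 1.06 with a 95% confidence interval of 0.25 to 1.86. This is a fold of 2.08, with an interval of 1.19 to 3.64 (two-sided exact permutation p = 0.0411; adjusted p = 0.999 from limma). The study already lists EGF as enriched in the CA piglets of this trial, so this direction was known beforehand. The spread of EGF within groups was larger than that of 99.5% of all genes. The exact permutation p was above 0.05 on linear intensities (0.0779) and without CA piglet 1, 2 or 5 or SA piglet 8, 10 or 11 (0.0541 to 0.0758). Without SA piglet 9 the difference was 1.38 (exact permutation p = 0.00216, the smallest that 6 against 5 piglets can give; adjusted p = 0.242 from limma). SA piglet 9 was the only SA piglet not below every CA piglet, so leaving it out fixed this permutation p in advance.

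Markers of parietal cells, the acid-secreting cells, were also higher in mean in the CA piglets. All 6 of them had this direction, beside 52.7% of all genes, and their mean level was 0.44 higher. From limma, 4 had an unadjusted p under 0.05, beside 3.28% of all genes (2.06% higher in the CA piglets). At an adjusted p under 0.05 there were 0. The study lists ATP4A, ATP4B, KCNE2, KCNJ15 and AQP4 as enriched in the CA piglets of this trial, in the same set as EGF. Their direction was thus known beforehand. SA piglet 9, the SA piglet with the highest EGF, also had the highest mean of these markers (10.34) among all piglets. Within the groups, with each group's mean removed, EGF and the marker mean correlated at r = 0.681 over the 12 piglets (permutation p = 0.0186; Spearman's rho = 0.622, permutation p = 0.0348). This did not pass after adjustment over the 64 relations of a gene with a marker list (adjusted p = 0.171), and r was 0.342 without the 2 piglets farthest from the median of the marker mean. The part of parietal cell number in the difference of EGF was not tested.

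TGFA, a ligand that parietal cells and surface cells are known to make, had log2 intensities of 7.25, 7.39, 7.38, 7.63, 7.24 and 7.45 in the CA piglets 1 to 6. It was at 7.36, 7.24, 7.34, 7.10, 6.90 and 7.17 in the SA piglets 7 to 12. The difference was small and the values were close together, with CA piglet 4 highest and SA piglet 11 lowest. TGFA averaged 7.39 ± 0.14 in the CA piglets and 7.19 ± 0.17 in the SA piglets (SD, n = 6 each). The log2 difference was 0.20 (95% confidence interval 0.01 to 0.40), a fold of 1.15 (exact permutation p = 0.0411; adjusted p = 0.999 from limma). The exact permutation p was above 0.05 when each array was centred on its median (0.0563) and without CA piglet 2, 3, 4 or 6 or SA piglet 8, 10, 11 or 12 (0.0563 to 0.0931). The lowest exact permutation p of TGFA with 1 piglet left out was 0.0238, without SA piglet 7.

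HBEGF, the heparin-binding ligand linked to epithelial repair, was at 6.86, 7.79, 6.99, 7.86, 7.20 and 7.37 in the CA piglets 1 to 6. In the SA piglets 7 to 12 it was at 7.37, 7.70, 6.83, 7.26, 6.58 and 7.41. High and low piglets occurred in both groups, with CA piglets 2 and 4 and SA piglet 8 at the top. HBEGF averaged 7.34 ± 0.41 in the CA piglets and 7.19 ± 0.41 in the SA piglets. The log2 difference was 0.15, with an interval of -0.30 to 0.60 (exact permutation p = 0.526). With 1 piglet left out it was between 0.03 (without SA piglet 11, the lowest piglet) and 0.25 (without SA piglet 8).

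AREG, amphiregulin, and EREG, epiregulin, are ligands induced by injury and inflammation in many epithelia, and both features lay below the median feature of the arrays. AREG was between 4.88 and 6.28 in the CA piglets (median 5.36) and between 4.96 and 5.72 in the SA piglets (median 5.26). Its log2 difference was 0.18, with an interval of -0.35 to 0.70 (exact permutation p = 0.532), and with 1 piglet left out it was between 0.02 (without CA piglet 6, which had the highest value) and 0.30 (without CA piglet 4). EREG was between 3.74 and 4.45 in the CA piglets (median 3.99) and between 3.66 and 4.46 in the SA piglets (median 3.73). CA piglet 4 and SA piglet 8 stood above all others. The log2 difference of EREG was 0.15, with an interval of -0.16 to 0.46 (exact permutation p = 0.383). It became 0.27 without SA piglet 8 (exact permutation p = 0.0325) and 0.06 without CA piglet 4 (exact permutation p = 0.749).

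BTC, betacellulin, had log2 intensities of 8.99, 8.18, 7.58, 7.31, 8.26 and 7.54 in the CA piglets 1 to 6. It was at 8.21, 7.74, 6.62, 7.86, 9.41 and 8.74 in the SA piglets 7 to 12. Both the lowest (9) and the highest (11) piglet were SA piglets, and they lay a fold of 6.91 apart. The mean of BTC was 7.97 ± 0.62 in the CA piglets and 8.10 ± 0.95 in the SA piglets. The spread within groups exceeded that of 99.6% of all genes. The log2 difference was -0.12, with an interval of -0.98 to 0.74 (exact permutation p = 0.797), and its sign turned when CA piglet 4 (0.01), SA piglet 11 (0.14) or SA piglet 12 (0.0072) was left out, while it was -0.42 without SA piglet 9.

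Of the receptors, ERBB2, the partner receptor without a ligand, was at 7.61, 7.74, 8.00, 8.00, 7.45 and 7.62 in the CA piglets 1 to 6 and at 7.49, 7.58, 7.74, 7.68, 7.44 and 7.66 in the SA piglets 7 to 12. CA piglets 3 and 4 were above every SA piglet, while the other CA piglets lay within or near the SA range. Its log2 difference was 0.14, with an interval of -0.07 to 0.35 (exact permutation p = 0.214), and it was 0.09 without CA piglet 3 or CA piglet 4 and 0.20 without CA piglet 5. ERBB3, the receptor of neuregulins with an impaired kinase, was at 8.82, 8.77, 9.19, 9.37, 8.69 and 8.69 in the CA piglets 1 to 6 and at 8.95, 8.95, 8.99, 9.10, 8.81 and 9.13 in the SA piglets 7 to 12. CA piglets 3 and 4 were again the highest, and the other 4 CA piglets lay close to or below the lowest SA piglet. The log2 difference of ERBB3 was -0.07, with an interval of -0.32 to 0.18 (exact permutation p = 0.591), and it was -0.16 without CA piglet 4 and -0.02 without CA piglet 5 or CA piglet 6. As folds, these intervals ran from 0.952 to 1.28 for ERBB2 and from 0.801 to 1.14 for ERBB3.

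**Figure D2:**
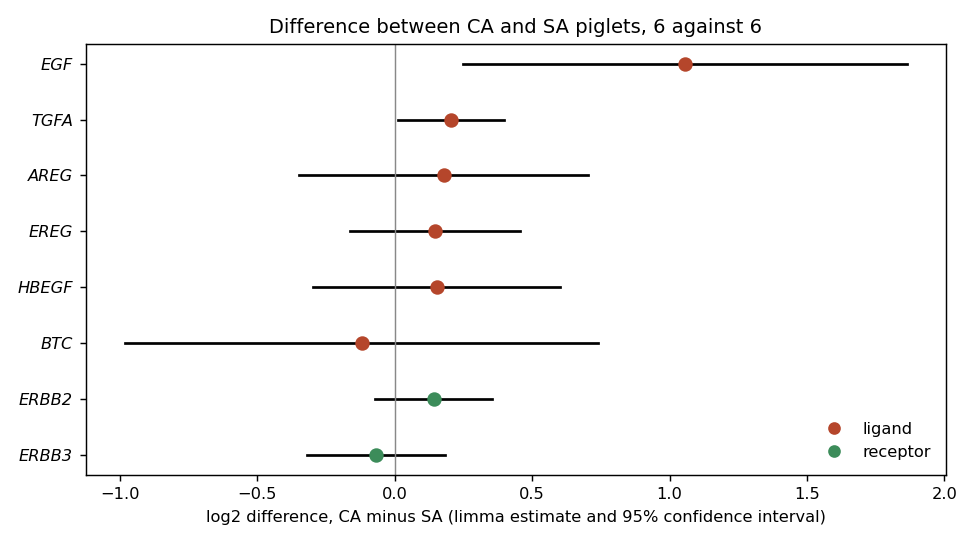
Log2 difference, CA minus SA (horizontal axis) for each gene, with the 95% confidence interval from limma, n = 6 and 6. The intervals of EGF (0.25 to 1.86) and TGFA (0.01 to 0.40) lie above 0, and the widest intervals are those of BTC and EGF.

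How the genes varied from piglet to piglet was examined on deviations from the mean of each piglet's own group. Over the 28 pairs of genes, 1 passed Benjamini-Hochberg adjustment. ERBB2 and ERBB3 moved together (r = 0.889, adjusted permutation p = 0.0014; Spearman's rho = 0.895, adjusted permutation p = 0.00588). The relation was present within the CA piglets (r = 0.920) and within the SA piglets (r = 0.766), and r was 0.846 without the 2 piglets farthest from the median of ERBB2. With the group means left in, r was 0.738 (adjusted p = 0.157 by permutation). TGFA and BTC ran opposite to each other, with r = -0.750 (adjusted permutation p = 0.0778), within the CA piglets (-0.810) and within the SA piglets (-0.726), without passing. EGF and EREG were at r = -0.625 (adjusted permutation p = 0.205), TGFA and HBEGF at 0.594, EREG and HBEGF at 0.594, and BTC and ERBB2 at -0.588 (adjusted permutation p = 0.205 for each). Without the 2 piglets farthest on the first gene, r was -0.607 for TGFA and BTC, -0.353 for EGF and EREG, 0.252 for TGFA and HBEGF, 0.116 for EREG and HBEGF and -0.511 for BTC and ERBB2. EREG, AREG and BTC neighbour each other in this order in the pig annotation (Sscrofa11.1). The values of these neighbours were at r = 0.221 for AREG and EREG (adjusted permutation p = 0.649) and at 0.00216 for AREG and BTC (adjusted permutation p = 0.995).

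**Figure D3:**
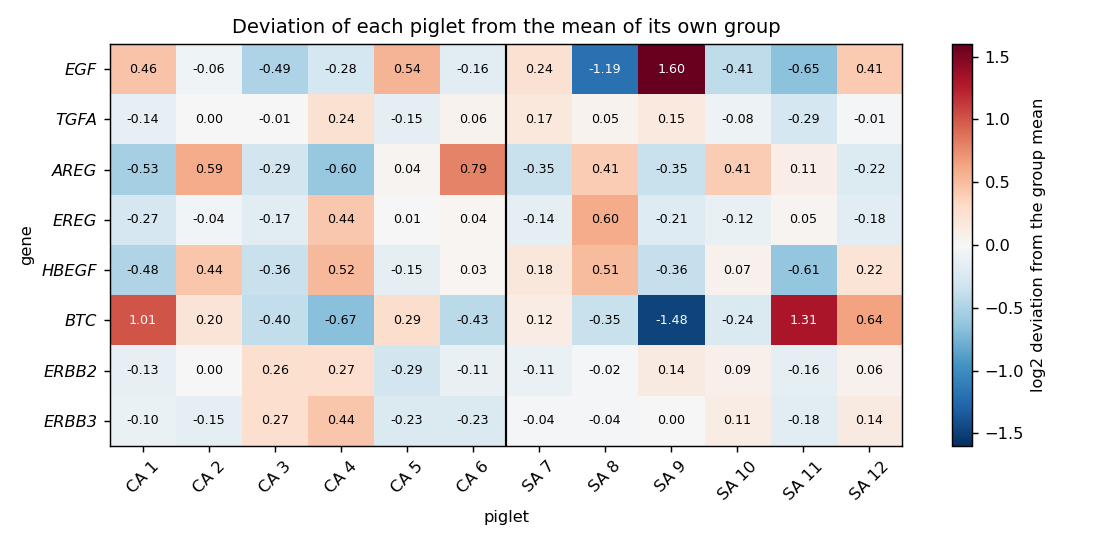
Log2 deviation of each piglet (columns, CA left of the line and SA right of it) from the mean of its own group, for the 8 genes (rows). SA piglet 9 has the highest EGF (1.60) together with the lowest BTC (-1.48), and CA piglets 3 and 4 are high in both ERBB2 and ERBB3. Over the 12 piglets EGF and BTC were at r = -0.224 (adjusted permutation p = 0.649), with 0.824 within the CA piglets and -0.518 within the SA piglets.

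BTC moved with 2 markers of smooth muscle. Its correlation with the mean of CNN1, calponin, and TAGLN, transgelin, the 2 measured of 5 smooth muscle markers, was r = 0.937 (permutation p = 1e-05, the smallest that the permutations can give; adjusted p = 0.00064 by permutation over 64 relations; Spearman's rho = 0.930, adjusted permutation p = 0.0032). The relation was present within the CA piglets (r = 0.861) and within the SA piglets (r = 0.968), and r was 0.835 without the 2 piglets farthest from the median of the markers, which are SA piglets 9 and 11 (adjusted p = 0.0691 by permutation). The marker mean was between 10.18 and 11.17 in the CA piglets and between 9.72 and 11.50 in the SA piglets, with SA piglet 9 lowest and SA piglet 11 highest, as for BTC. Of the other genes, TGFA ran against these markers (r = -0.687, adjusted permutation p = 0.163). The part of smooth muscle in the spread of BTC was not tested.

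EREG correlated with the mean of 6 markers of antrum and intestine (r = 0.788, adjusted permutation p = 0.0483; Spearman's rho = 0.741, adjusted permutation p = 0.181). The permutations made no allowance for the removed group means, so the permutation p of 0.0483, just under 0.05, tends to be too small. Of those 6 features 4, like EREG itself, were below the median feature, and r was 0.583 without the 2 farthest piglets. Without SA piglets 9 and 11 it was 0.774 (adjusted permutation p = 0.128). AREG ran with 3 measured immune cell markers, PTPRC, CD3E and CSF1R (r = 0.746, adjusted permutation p = 0.132), without passing. The marker mean of immune cells was between 7.24 and 7.71 in the CA piglets and between 7.35 and 7.69 in the SA piglets.

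**Figure D4:**
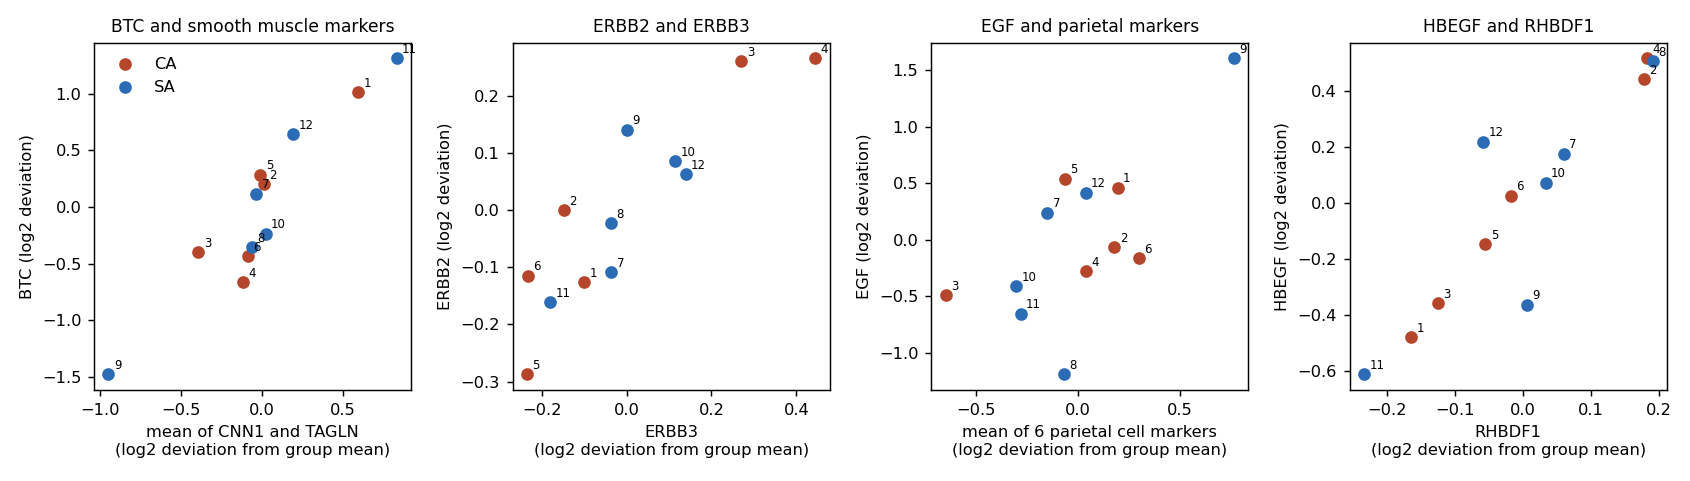
Deviations from the group mean (both axes, log2 scale) of 12 piglets, CA and SA in separate colours with piglet numbers: BTC against 2 smooth muscle markers (r = 0.937), ERBB2 against ERBB3 (r = 0.889), EGF against 6 parietal cell markers (r = 0.681) and HBEGF against RHBDF1 (r = 0.909). SA piglets 9 and 11 form the ends of the first panel, and SA piglet 9 stands alone at the top right of the third.

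For each gene the 3 most similar of the 10909 other genes were taken by Pearson's r of these deviations over the 12 piglets, as a description without a test. EGF was most similar to USP32, a deubiquitinating enzyme (r = 0.895), RNF19A, a ubiquitin ligase (0.880), and CFAP221, a protein of cilia (0.880). The feature of CFAP221 was below the median feature, and its r with EGF was 0.528 within the CA piglets and 0.480 with the group means left in. For TGFA they were TBL2 (0.934), RAB25, a small GTPase of epithelial cells (0.916), and CLCN7, a chloride transporter of lysosomes (0.912). For AREG they were LOC100738056 (0.896), MPEG1, a pore-forming protein of macrophages (0.863), and UBA7, an enzyme of the interferon-induced ISG15 pathway (0.862). For EREG they were TRIM47 (0.929), GEMIN8 (0.924) and UPB1 (0.920). BTC had the closest matches, namely NPFFR2, a receptor of neuropeptide FF (0.991), SH3D19 (0.984) and FRZB, a secreted WNT antagonist (0.975). HBEGF was most similar to FOLR1, a folate receptor (0.933), RHBDF1 (0.909) and SRM, spermidine synthase (0.907). ERBB2 was closest to SPNS1 (0.946), PCBD1 (0.931) and EXOSC5, an exosome subunit (0.917), and ERBB3 to LOC100524300 (0.945), APH1A, a subunit of gamma-secretase (0.931), and ASL, argininosuccinate lyase (0.928). The 3 matches of ERBB3 had r of 0.716, 0.803 and 0.615 within the SA piglets, against 0.981, 0.950 and 0.993 within the CA piglets. Besides CFAP221, the features of LOC100738056, UPB1, NPFFR2, FOLR1 and LOC100524300 were below the median feature. With the group means left in, r was 0.666 for TBL2 with TGFA and 0.732 for MPEG1 with AREG. For the other pairs except CFAP221 it was between 0.788 and 0.984.

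The 50 measured genes of the pathway lists were ranked in the same way for each of the 8 family genes, again without a test, and both ends of the ranks were occupied. RHBDF1, known as iRhom1, which carries the sheddase ADAM17 to the cell surface, was at rank 2 for HBEGF. IER3 and EGR2, immediate early genes that growth factors induce, were at ranks 7 and 30 for HBEGF (r = 0.885 and 0.837). LRIG1, a membrane protein that restrains the receptors of this family, was at rank 9 for EGF (r = 0.852). SPRED2, an inhibitor of the RAS and MAP kinase route, was at rank 6 for ERBB3 (r = 0.924) and rank 58 for ERBB2 (0.852). MYC, a growth-induced transcription factor, was at rank 31 for ERBB2 (r = 0.866). MCL1, an inhibitor of cell death, was at rank 23 for AREG (r = 0.765). For the other 3 ligands the highest pathway gene was lower in rank, namely ERBB4 at 95 for TGFA (r = 0.774), RHBDF2 at 171 for EREG (0.729) and ADAM12 at 279 for BTC (0.791). At the opposite end, ERBB4 was at rank 10741 for BTC (r = -0.775), SOS1, an activator of RAS, at 10849 for EREG (-0.772), PIK3R1, a subunit of PI3-kinase, at 10825 for HBEGF (-0.728) and ADAM12 at 10808 for ERBB2 (-0.721). These ranks are among the 10909 genes, and each is an end of 50 values, or among the 3 highest.

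Other genes of the pathway were followed in 5 lists with 91 genes, of which 50 were measured. None of the 50 passed an adjusted p of 0.05, and 2 were higher in the CA piglets and 0 lower at an unadjusted p under 0.05 from limma, beside 3.28% of all genes in either direction (2.06% higher and 1.22% lower). The mean was higher in the CA piglets for 35 of the 50, where it was for 52.7% of all genes, with a median log2 difference of 0.03 against 0.01 over all genes. The counts of the single lists stand against the same 52.7%.

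Of the other ligands and the fourth receptor, 4 of 6 were measured. ERBB4, a receptor of neuregulins as well as of BTC and HBEGF, had a log2 difference of 0.41 (95% confidence interval 0.00078 to 0.82; exact permutation p = 0.0823; unadjusted p = 0.0496 and adjusted p = 0.999 from limma). It was at 8.67, 8.52, 8.54, 8.99, 8.43 and 8.87 in the CA piglets 1 to 6 and at 8.36, 8.08, 9.00, 8.30, 7.52 and 8.30 in the SA piglets 7 to 12. As for EGF, 5 SA piglets lay below every CA piglet and SA piglet 9 was at the top. A second, dimmer feature of ERBB4 gave 0.24 (exact permutation p = 0.253) and correlated with the first at r = 0.958. Of the neuregulins, NRG1 had a log2 difference of 0.04, NRG4 one of 0.01 and NRG3 one of -0.00018.

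Of the 10 genes of shedding and trafficking, all measured, 7 had a higher mean in the CA piglets. RHBDL2, a rhomboid protease that can cleave EGF precursors, had a log2 difference of 0.35 (interval -0.04 to 0.74), RHBDF1 one of 0.13 and ADAM12, a metalloprotease, one of 0.12, while NRDC, a peptidase that enhances shedding, was at -0.04. ADAM17 itself was at 0.01, with an interval of -0.12 to 0.14. Of 28 adaptors and kinases 11 were measured and 8 had a higher mean, with a median of 0.03. SHC1, the adaptor that links the receptors to RAS, was highest at 0.12, and STAT5A, a transcription factor, was at 0.07. ARAF, a kinase of the RAF family, was at 0.05, and GRB2, another adaptor, was lowest at -0.03.

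Of 23 feedback inhibitors and genes of receptor degradation, 15 were measured and 8 had a higher mean. EPS15, an adaptor of receptor endocytosis, had a log2 difference of 0.15 (interval -0.0029 to 0.31) and LRIG1 one of 0.27 (interval -0.03 to 0.57). PTPN1, a phosphatase of receptor kinases, was at 0.14, and SPRED1 was on the other side at -0.12. Of 24 target genes 10 were measured and 9 had a higher mean, and the median of 0.16 was the highest of the 5 lists. JUN, a subunit of the AP-1 transcription factor, had a log2 difference of 0.31 (interval 0.07 to 0.54; exact permutation p = 0.039; adjusted p = 0.999 from limma). ATF3, a stress-induced factor, was at 0.36, EGR1, an immediate early factor, at 0.34, and FOSL1, another AP-1 subunit, at 0.27, each with an interval that includes 0.

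**Figure D5:**
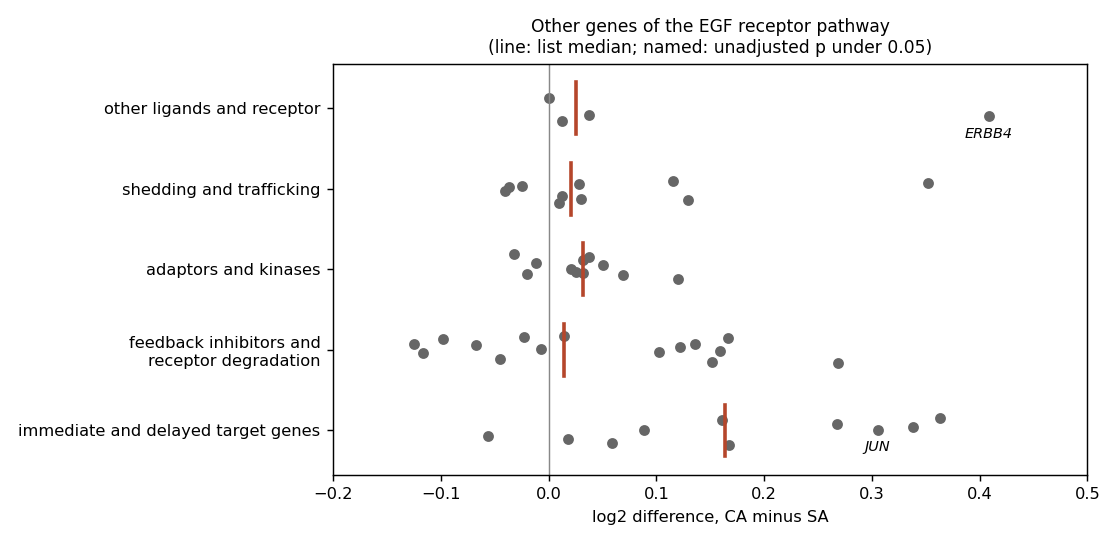
Log2 difference, CA minus SA (horizontal axis) for 50 other genes of the EGF receptor pathway in 5 lists (rows). Points are genes and lines are list medians. The medians of the first 4 lists lie between 0.01 and 0.03, that of the target genes is 0.16, and ERBB4 and JUN are the genes at an unadjusted p under 0.05.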

How the data were processed

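The deposited values of 12 arrays are intensities on a linear scale, normalized by the authors through the RMA algorithm of Expression Console (version not given in the sources used here). Intensities were converted to log2. Of 27558 features, 11982 had 1 gene symbol, 373 had several and 15203 were unnamed here. The family and all lists were chosen with earlier results of these data known. Genes were tested with lmFit and eBayes of limma 3.58.1 (R 4.3.3), with neither covariates nor a filter, and adjusted over 10910 genes. Single genes were tested by two-sided exact permutation over 924 splits, with 0.00216 as the smallest p. Correlations used 100000 permutations of the deviations over all 12 piglets. No allowance was made for the removed group means, so these p-values tend to be too small. Correlations with marker lists were added after the data were examined. Named were all measured family genes, the 4 smallest p of each list and the 3 most similar genes, and genes outside this rule were chosen after their values were seen. Alternatives were another normalization, median centring, array weights, linear intensities, the mean of a gene's features and leaving out each piglet. The scripts were tested on simulated data. The number of arrays limits the precision. The p-values of group differences set a difference against the spread between piglets, and a spread between rooms or litters was not modelled. Python 3.11.15, numpy 2.4.6, pandas 2.3.3 and matplotlib 3.10.9 were used.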

Additional observations from a re-analysis of the deposited data

Results flagged for a closer look

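EREG in the SA piglets held 1 value far from the rest. SA piglet 8 was at 4.46 on the log2 scale and the next SA piglet at 3.91, a gap of 0.684 of the range of the group, above Dixon's 95% critical value for 6 samples. This was 1 of 16 groups of values examined, and chance alone would single out about 1 in 20 such groups.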

How the results depend on the processing

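Under each alternative run, 0 genes, 0 family genes and 0 pathway genes passed an adjusted p of 0.05. The count of family genes at an unadjusted p under 0.05, which is 2, was 1 with median centring, with an intensity trend and robust moderation and with array weights, and 1 to 3 when 1 piglet was left out (1 without CA piglet 2, 3, 4 or 6 or SA piglet 10, 11 or 12, and 3 without SA piglet 8). This count was chosen after the data were examined. The exact permutation p of EGF was 0.0779 on linear intensities and 0.00216 to 0.0758 when 1 piglet was left out, and that of TGFA 0.0563 with median centring and 0.0238 to 0.0931. With 1 piglet left out, that of EREG was 0.0325 to 0.749 and that of BTC 0.316 to 0.987. The log2 difference of BTC, at -0.42 to 0.14, was the one family difference that turned in sign under the alternatives run. With array weights the log2 difference was 0.37 for AREG, 0.10 for EREG, 0.06 for HBEGF, 0.08 for ERBB2 and -0.18 for ERBB3. The correlation of ERBB2 and ERBB3 did not pass with the group means left in (r = 0.738). Without SA piglets 9 and 11, chosen after the data were examined, BTC with smooth muscle markers (r = 0.835) and EREG with antrum and intestine markers (r = 0.774) did not pass. The causes were not tested. The study's methods describe litters as balanced over the groups. No analysis paired by litter was possible because no source used here gives the litter of a single piglet. The signal of AREG and EREG below the median feature limits both.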
